A study of Mus musculus with 4 samples.

Results

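Fibrillar collagens and the matrix proteins that mesenchymal cells lay down with them were examined in cell aggregates grown from iMN-ESCs, a mouse embryonic stem cell line on the C57BL/6 background that expresses an Isl1-Lhx3 fusion when doxycycline (Dox) is added. The set holds 10 genes of 21814 genes with counts: Col1a1, Col1a2, Col3a1, Col5a1, Col5a2, Col6a1, Col6a2, Lum, Dcn and Postn. They were chosen by name and function, and their values are the counts summed over all numbered parts of each gene in the 4 libraries. The set was put together with earlier results of these same counts known, so the difference between the groups is given for these genes as a description, with no p-value, and supports nothing by itself.

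Every aggregate spent its first 2 days in LIF-containing stem cell medium, followed by 2 days with all-trans retinoic acid at 0.5 µM. They then spent 2 to 3 more days in retinoic acid, either without Dox (2 libraries) or with 2 µg/mL Dox (2 libraries). The library labels give 1 line, and no group had Dox without the transgene, so Dox and the fusion cannot be told apart. Counts over all parts summed to 28239859 and 24020832 without Dox and to 37311037 and 53903936 with Dox. Counts of the genes joined in the fusion followed the labels. Lhx3 stood at 0.404 and 0.286 counts per 1000000 (CPM) without Dox against 125 and 108 CPM with it, and Isl1 at 3.08 and 5.84 CPM against 104 and 82.4 CPM. These counts do not separate reads of the fusion from reads of the cells' own Isl1 and Lhx3. The RNA came from whole aggregates. A difference between groups can therefore reflect more cells of a type or more RNA per cell, and these cannot be told apart.

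Collagens are secreted as trimers of long chains built on a glycine repeat. Types I and III form the bulk of the banded fibrils of skin, tendon and bone, type V nucleates those fibrils and sets their width, and type VI forms beaded filaments between fibrils and cells. Lumican (Lum) and decorin (Dcn) are small leucine-rich proteoglycans that sit on the fibril surface, and periostin (Postn) is a secreted matricellular protein of bone lining and wound fibroblasts. Nervous tissue itself makes little fibrillar collagen, which is found mainly in its coverings, vessels and nerve sheaths.

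Several of the collagen promoters differed sharply in base composition, and 3 are shown, chosen after the values of their genes were seen. Col3a1 was called higher with Dox, while Col1a2 and Col5a1 were not called. Both Dox libraries of Col5a1 also lay above both controls, so the 3 are not a contrast of rising and unchanged genes. Of the 10 genes, 6 had an entry in the RefSeq promoter table (build GRCm38.p6). Col1a1, the other gene called higher, had no entry. Each sequence is the 250 bases before the annotated start, 5′ to 3′ on the gene's own strand. Capitals mark matches to 4 motifs: the CCAAT box, the GC box GGGCGG, the homeodomain core TAAT and the TATA-like TATAA. Both strands were searched, so a reverse complement is also in capitals, and matches may overlap each other.

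Col3a1, chr1:45311288-45311537, plus strand: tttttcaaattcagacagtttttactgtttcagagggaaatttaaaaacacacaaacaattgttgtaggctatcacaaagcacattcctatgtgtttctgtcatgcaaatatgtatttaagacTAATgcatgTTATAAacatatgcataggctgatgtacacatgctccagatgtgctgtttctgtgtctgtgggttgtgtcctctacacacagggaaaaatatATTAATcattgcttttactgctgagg

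Col1a2, chr6:4505368-4505617, plus strand: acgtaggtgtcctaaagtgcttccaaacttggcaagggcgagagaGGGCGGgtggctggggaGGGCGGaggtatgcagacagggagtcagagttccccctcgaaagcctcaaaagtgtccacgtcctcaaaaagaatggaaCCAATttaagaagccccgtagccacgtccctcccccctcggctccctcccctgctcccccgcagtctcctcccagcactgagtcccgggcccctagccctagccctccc

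Col5a1, chr2:27886175-27886424, plus strand: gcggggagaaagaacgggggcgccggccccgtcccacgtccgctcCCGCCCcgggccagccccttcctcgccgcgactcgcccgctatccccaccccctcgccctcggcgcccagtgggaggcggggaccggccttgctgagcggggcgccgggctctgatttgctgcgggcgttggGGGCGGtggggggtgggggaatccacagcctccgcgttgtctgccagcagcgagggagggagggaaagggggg

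The Col3a1 window was 35.2% G or C, against a median of 52.4% over 32851 promoter windows, and it held no CG dinucleotide. It carried 3 matches to TAAT, the core bound by many homeodomain factors, and 2 to TATAA. The Col5a1 window was 76.4% G or C with 28 CG dinucleotides, a composition above that of 97.0% of windows, and carried 2 GGGCGG matches and no TAAT or TATAA. Col1a2 lay between them at 62.0% G or C, with 2 GGGCGG matches and 1 CCAAT. These letters are common: TAAT was present in 54.9% of all windows of this length, CCAAT in 33.9%, GGGCGG in 32.7% and TATAA in 22.8%, and the median window had 6 CG dinucleotides. Postn, whose Dox libraries lay below both controls, had 2 windows. The first was 40.4% G or C with 1 TAAT, and the second was 52.0% G or C with 1 TATAA. The Col6a1 window was 56.0% G or C with no match to any of the motifs. For Col6a2, the windows were 64.4% and 59.2% G or C, with 3 and 1 GGGCGG matches. A match is a string of letters and not a bound site, and a link between these letters and the Dox values was not tested.

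The fibrillar collagen chains differed in their values, which is given as a description. Col1a1 was about 4-fold and Col3a1 4.73-fold as abundant with Dox, while Col1a2, the partner chain of Col1a1 in type I collagen, overlapped between the groups. The difference between these chains was not tested. By the largest part of each gene, the ratio of Col1a1 to Col1a2 overlapped between the groups. The fitted change of the better-counted type V and VI chains (Col5a1, Col6a1 and Col6a2) was at most 0.47 on the log2 scale. Lum and Dcn had at most 10 counts in any library, and Col5a2 at most 40. Of the 10 genes, 8 passed the filter on low counts, and 2 of these (Col1a1 and Col3a1) were called higher and none lower in edgeR's quasi-likelihood test over 14278 genes, with a Benjamini-Hochberg adjusted p under 0.05. Over all genes tested, 1.28% were called in either direction and 1.23% were called higher. Nothing is read from the comparison of these shares, since the set was proposed with this contrast known. The median log2 fold change was 0.47 for the 8 genes and -0.01 for all genes tested, and 6 of the 8 lay above 0.

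**Figure D1:**
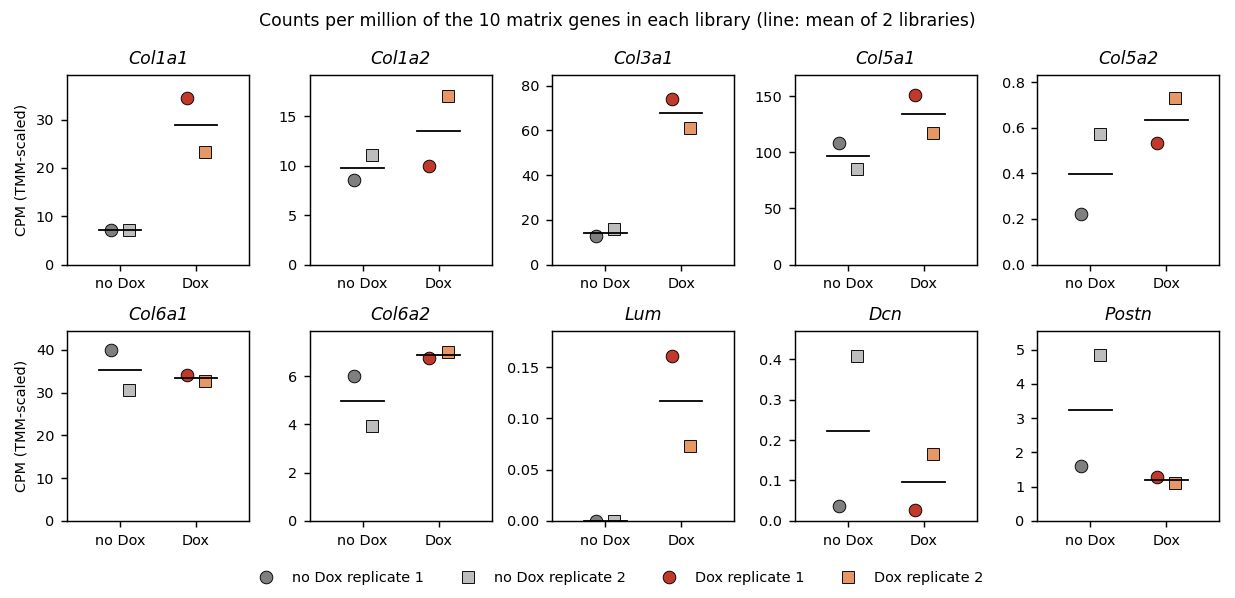
CPM (counts per 1000000, TMM-scaled, linear axis from 0, with its own range in each panel) of the 10 genes in the 2 libraries without Dox (grey) and the 2 with Dox (red and orange); circles are replicate 1, squares replicate 2 and lines the mean of 2 libraries. Col1a1 and Col3a1 with Dox lie well above both libraries without Dox, whereas Col1a2, Col5a2, Col6a1 and Dcn overlap.

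Col3a1 encodes the single chain of type III collagen, the fibril of soft and vascular tissue. It stood at 12.8 and 15.8 CPM in the controls, against 74.2 and 61.2 CPM under Dox (log2 change 2.24, SE 0.17). Both Dox libraries lay far above both others, and the difference between replicates was small beside that gap. Col1a1, the major chain of type I collagen, stood at 7.23 and 7.18 CPM in the controls, against 34.4 and 23.3 CPM under Dox (log2 change 2.00, SE 0.23). The groups were again far apart, with the Dox libraries less alike than the controls. Col1a2 encodes the chain that joins Col1a1 in type I trimers. It stood at 8.55 and 11.1 CPM in the controls, against 9.93 and 17.0 CPM under Dox (log2 change 0.46, SE 0.29). Dox replicate 1 lay inside the range of the controls, and the Col1a2 value rested on Dox replicate 2: without that library its log2 fold change was 0.04. With Dox replicate 1 left out in its place it was 0.80.

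With each of the 4 libraries left out in turn, the log2 fold change ran from 1.69 to 2.27 for Col1a1 and from 2.10 to 2.39 for Col3a1. These fits take the spread of the lone library of a group from the other group, and they describe the same contrast that was known when the set was put together. Counting the largest part alone, Col3a1 was still called (log2 fold change 2.44), while Col1a1 had a log2 fold change of 2.18 and was no longer called. The largest part of Col1a1 held 5.62% of its counts.

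The higher level of Col1a1 and Col3a1 ran along the whole transcript. Col3a1 has 51 numbered parts, and in 51 of them both Dox libraries lay above both others. Col1a1 also has 51, and 48 of them did so, none the reverse. For Col1a1 the log2 ratio of the group means was 2.33 over the 17 parts nearest the 5′ end, 1.91 over the middle 17 and 1.92 over the last 17. For Col3a1 these ratios were 2.22, 2.46 and 2.16. Col1a2 differed from both: 16 of its 52 parts lay above both controls with Dox and 3 below. Parts of 1 gene share reads and are not independent replicates.

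**Figure D2:**
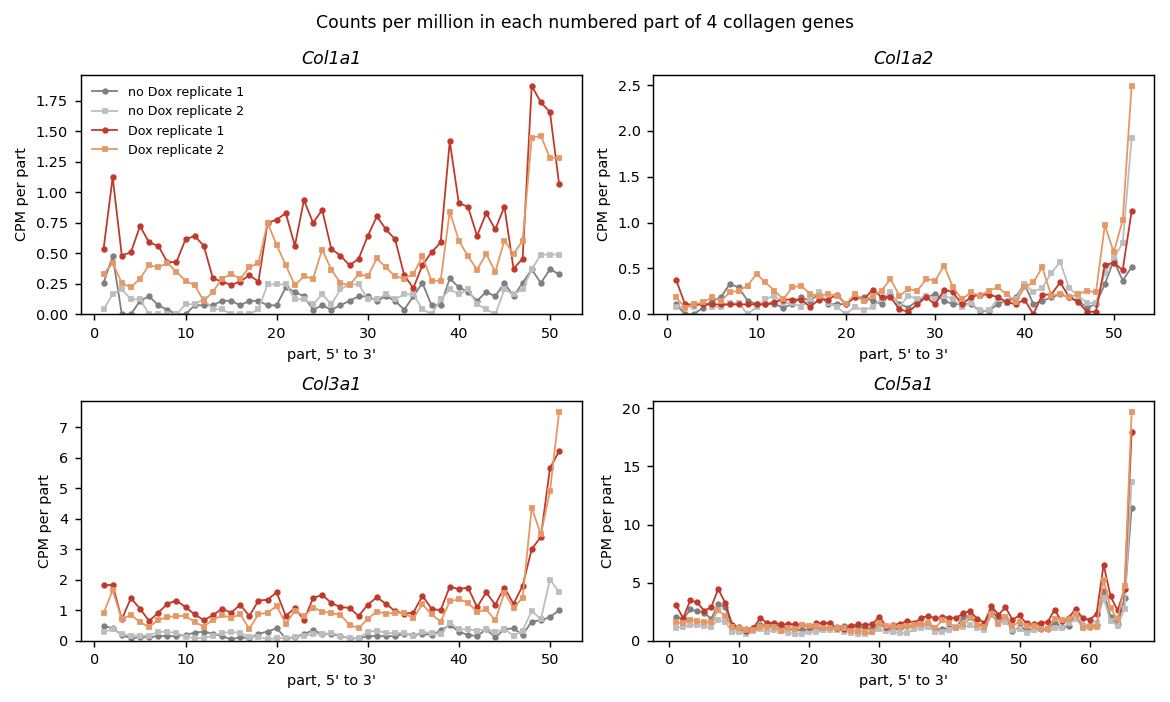
CPM (counts per 1000000, linear axis from 0) in each numbered part of Col1a1, Col1a2, Col3a1 and Col5a1, in order from the 5′ to the 3′ end, with 1 line per library. In Col1a1 and Col3a1 the Dox libraries (red and orange) run above those without Dox (grey) along the gene, in 48 and 51 of 51 parts, while the lines of Col1a2 cross.

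Type V collagen is built mainly from Col5a1 and Col5a2 chains, and these genes were expressed at very unequal levels. Col5a1 stood at 108 and 84.8 CPM in the controls, against 151 and 117 CPM under Dox (log2 change 0.47, SE 0.18). Both Dox libraries lay above both controls, by a margin smaller than the gap between replicates. Its log2 fold change ran from 0.27 to 0.67 with 1 library left out. Col5a2 was barely detected, with 6 and 14 counts without Dox and 20 and 40 counts with Dox, or 0.220 and 0.571 CPM against 0.535 and 0.732 CPM (log2 change 0.71, SE 0.54). Its groups overlapped, and the value rested on single libraries: the log2 fold change was 0.17 with no Dox replicate 1 left out and 1.52 with no Dox replicate 2 left out. Col5a2 lies next to Col3a1 in the RefSeq annotation, so these 2 neighbours stood at levels far apart per length of exon, at most 0.110 CPM per kb for Col5a2 against at least 2.31 for Col3a1. Per kb, Col5a1 was 388 and 117 times as abundant as Col5a2 without Dox and 222 and 126 times with Dox. By the largest parts these ratios were 225 and 60.3 without Dox and 97.1 and 64.8 with Dox.

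For type VI collagen, Col6a1 stood at 39.9 and 30.5 CPM in the controls, against 34.0 and 32.7 CPM under Dox (log2 change -0.08, SE 0.16). Both Dox libraries lay between the controls, and the log2 fold change was 0.14 without no Dox replicate 1. Its neighbour and partner chain Col6a2 stood at 6.02 and 3.92 CPM in the controls, against 6.74 and 7.01 CPM under Dox (log2 change 0.47, SE 0.26). Here the Dox libraries lay above both controls by less than the gap between the controls. The ratio of Col6a1 to Col6a2 per kb was 6.38 and 7.50 without Dox and 4.86 and 4.49 with Dox, and by the largest parts it was 10.4 and 8.18 without Dox and 4.59 and 5.37 with Dox. The usual further partner is Col6a3, which other chains can replace, and Col6a4, Col6a5 and Col6a6 were each below 1 CPM on average. Col6a3 had no gene unit matched to its symbol and is not analysed here.

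The proteoglycans of mature fibroblasts were almost silent. Lum had 0 counts in both libraries without Dox, which allows up to 0.110 and 0.122 CPM, and 6 and 4 counts with Dox (0.161 and 0.0732 CPM). Dcn, its neighbour on chromosome 10, had 1 and 10 counts without Dox and 1 and 9 counts with Dox. Neither passed the filter on low counts, and no fold change is given for them. Postn stood at 1.62 and 4.86 CPM in the controls, against 1.28 and 1.12 CPM under Dox (log2 change -1.43, SE 0.53). Both Dox libraries lay below both controls, close to no Dox replicate 1 and far from no Dox replicate 2. Of its 23 parts, 14 had both Dox libraries below both controls and none the reverse. Postn did not pass the unblocked test. Without no Dox replicate 1 its log2 fold change was -2.01 and it was called lower, and without no Dox replicate 2 it was -0.43 and not called.

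Between the groups, 4 of the 8 tested genes (Col1a1, Col3a1, Col5a1 and Col6a2) had both Dox libraries above both controls, and 1 (Postn) had both below. Over all genes tested these shares were 18.9% and 19.9%. In Col1a2, Col5a2 and Col6a1 the groups overlapped.

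Levels of different genes were compared per length of annotated exon. Col5a1 stood highest, at 10.1 to 17.9 CPM per kb over the 4 libraries, followed by Col6a1 at 7.44 to 9.73 and Col3a1 at 2.31 to 13.3. Next were Col1a1 at 1.21 to 5.80, Col1a2 at 1.60 to 3.19, Col6a2 at 0.992 to 1.78 and Postn at 0.340 to 1.48 CPM per kb. Dcn (0.0138 to 0.211), Col5a2 (0.0332 to 0.110) and Lum (0 to 0.0656) came last. Ranges of neighbours in this order overlapped except between Col5a1 and Col6a1 and between Postn and Dcn. None of the 10 was abundant: 59.8% of tested genes had a lower CPM per kb than Col5a1, 44.7% than Col3a1 and 29.2% than Col1a1. For scale, the basement membrane chain Col4a1 stood at 3363 to 3736 CPM per kb and the cartilage fibril chain Col2a1 at 36.2 to 55.8.

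**Figure D3:**
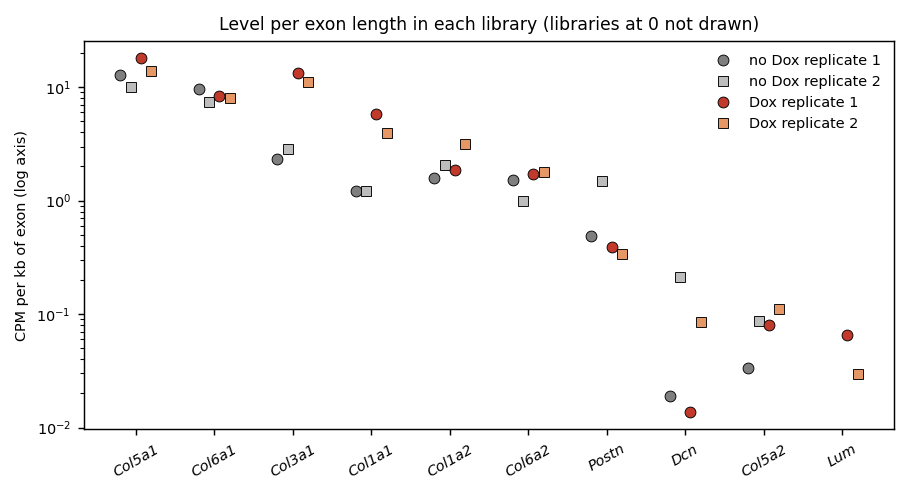
CPM (counts per 1000000) per kb of exon, on a log axis, of the 10 genes in each library, ordered by their mean; symbols as in the legend, and libraries at 0 (Lum without Dox) are not drawn. Col5a1 and Col6a1 lie highest, Col3a1 and Col1a1 spread widely between the groups, and Dcn, Col5a2 and Lum lie at or below 0.211 CPM per kb.

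How reads were counted bears on these levels. Collagen helices are encoded by many short exons, and the median part was 54 bases long in Col1a1, Col1a2, Col3a1, Col5a1 and Col5a2. Parts under 60 bases held 2.60 times as many CPM per kb as parts of at least 150 bases in Col1a1, 2.79 times in Col5a1, 2.54 times in Col6a1, 3.36 times in Col6a2 and 1.24 to 1.88 times in the other 3 collagens. A read that crosses several short exons may be counted in each, which was not tested against the reads. Between the groups the difference was alike on long parts alone, an alternative chosen after seeing the data, with a log2 ratio of 1.84 for Col1a1, 2.13 for Col3a1 and 0.47 for Col1a2. By the largest part per kb, Col6a1 (mean 6.92 CPM per kb) stood above Col5a1 (5.93), and Col3a1 (3.68) and Col1a1 (3.58) were nearly level. The order of the most abundant genes therefore depended on how parts were summed.

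Ratios between chains within a library are given as a description of their balance. The ratio of Col1a1 to Col1a2 per kb was 0.763 and 0.586 without Dox and 3.13 and 1.23 with Dox, and that of Col3a1 to Col1a2 was 1.44 and 1.37 against 7.18 and 3.45. By the largest part of each gene the Col1a1 to Col1a2 ratio was 2.60 and 0.696 without Dox and 6.06 and 2.11 with Dox, so those groups overlapped, while Col3a1 to Col1a2 kept them apart (1.79 and 0.772 against 5.14 and 2.80). The ratio of Col3a1 to Col1a1 overlapped between the groups, at 1.89 and 2.34 without Dox and 2.30 and 2.80 with Dox. Col5a1 stood at 10.6 and 8.33 times the level of Col1a1 without Dox and at 3.09 and 3.54 times with Dox. By the largest parts it stood at 3.34 and 3.97 times the level of Col1a1 without Dox and at 1.03 and 1.46 times with Dox. With 2 libraries against 2, an exact two-sided permutation test of a ratio cannot go below 0.333, so these differences in balance are values without a test.

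**Figure D4:**
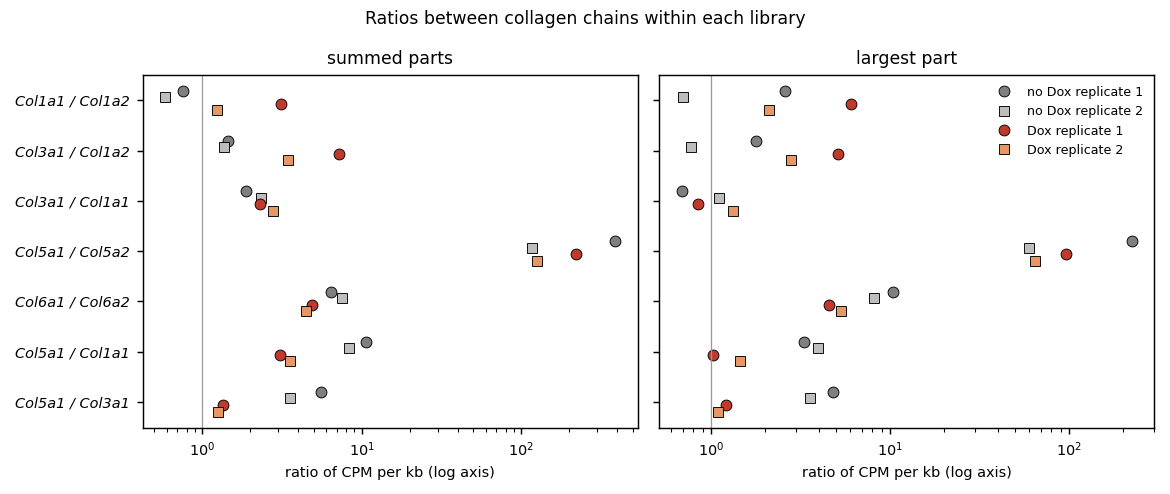
Ratio of CPM per kb between pairs of collagen chains in each library (log axis; grey line at 1), from counts summed over all parts (left) and from the largest part of each gene (right). Ratios of Col3a1 to Col1a2 are higher with Dox in both panels, and those of Col1a1 to Col1a2 overlap on the right.

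The rest of the matrix program was read from 10 lists of genes outside the set. Of their 93 tested genes 4 were called by edgeR. At an unadjusted edgeR p under 0.05, 25 were higher and 2 lower, where 6.25% and 4.01% of all genes tested were. The lists were chosen with earlier results of these data known, so nothing is read from these shares. Of the other 6 fibrillar collagens 1 was called higher, none lower and 5 neither way, with a median log2 fold change of 0.21. Col24a1, a minor fibrillar collagen of developing bone, rose with Dox, from 2.31 and 1.76 CPM to a level of 6.40 and 6.72 CPM (log2 change 1.68, SE 0.25; edgeR adjusted p = 0.0419), a call that ended with the largest part as the count (adjusted p = 0.22). Col11a1, which can replace type V chains in fibrils, stood at 89.2 and 56.4 CPM in the controls, against 170 and 106 CPM under Dox (adjusted p = 0.326). None of 8 fibril-associated collagens, 5 small leucine-rich proteoglycans, 10 collagen receptors, 5 collagenases and their inhibitors or 1 type VI chain was called. At an unadjusted p under 0.05 these lists held 9 higher and 2 lower of 29 tested genes, where 6.25% of all genes tested were higher and 4.01% lower at that threshold. Col14a1, a fibril-associated collagen and 1 of the 2 lower, stood at 4.88 and 3.31 CPM in the controls, against 1.39 and 0.860 CPM under Dox (edgeR adjusted p = 0.0951). In the proteoglycan list 10 of 12 genes were below 1 CPM on average, and Podn (1.76 and 2.69 CPM without Dox, 2.25 and 1.67 CPM with Dox) and Bgn (1.21 and 0.857 CPM against 1.69 and 1.63 CPM) are the members of the list with the largest mean CPM.

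Genes that fold collagen inside the cell gave no call, and those that trim and cross-link it outside gave 1. Of 17 tested genes of folding and modification none was called, with 3 higher and none lower at an unadjusted p under 0.05 and a median log2 fold change of 0.09. Serpinh1, the collagen chaperone of the endoplasmic reticulum, stood at 1597 and 2429 CPM in the controls, against 1873 and 2552 CPM under Dox. Replicate 2 was the higher in both groups. P4hb, the shared subunit of prolyl hydroxylase, stood at 2245 and 2664 CPM against 2149 and 2805 CPM. Outside the cell, 5 of 12 tested genes of procollagen cleavage and cross-linking were higher and none lower at an unadjusted edgeR p under 0.05. In 8 of the 12 both Dox libraries lay above both controls, where 18.9% of all genes tested did. After adjustment 1 was called higher and none lower, with a median log2 fold change of 0.75. This was Pcolce, which speeds removal of the procollagen tail: it rose with Dox, from 10.8 and 13.8 CPM to a level of 34.4 and 28.6 CPM (log2 change 1.36, SE 0.19; edgeR adjusted p = 0.0363). Its call ended when genes with a mean under 5 CPM were left out (adjusted p = 0.055) and with the largest part (adjusted p = 0.0903). Loxl1, a cross-linking oxidase, stood at 3.12 and 4.04 CPM in the controls, against 11.0 and 7.60 CPM under Dox (adjusted p = 0.102).

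Among 18 tested fibroblast glycoproteins and elastic fibre genes, 1 was called higher and none lower, with a median of 0.09. At an unadjusted edgeR p under 0.05, 4 were higher and none lower. Mfap2, a microfibril protein, rose with Dox, from 19.9 and 21.7 CPM to a level of 41.6 and 37.8 CPM (log2 change 0.93, SE 0.14; edgeR adjusted p = 0.0404). The Mfap2 call ended without Dox replicate 1 (adjusted p = 0.0647), among genes with a mean of 5 CPM (0.0537) and with the largest part (0.0719). Efemp1, a fibulin, stood at 1.40 and 2.04 CPM in the controls, against 6.58 and 13.5 CPM under Dox (adjusted p = 0.0604). Of the 18 genes, 10 had a log2 fold change above 0. Among those below, Thbs1 stood at 64.6 and 22.5 CPM against 25.7 and 21.1 CPM (edgeR adjusted p = 0.607). Ltbp1, also below, stood at 194 and 111 CPM against 115 and 86.6 CPM (edgeR adjusted p = 0.568). Of 11 TGF-beta signalling genes 1 was called higher and none lower, with a median of 0.17, and 2 were higher and none lower at the unadjusted threshold. The ligand Tgfb3 rose with Dox, from 4.66 and 5.88 CPM to a level of 13.2 and 12.7 CPM (log2 change 1.30, SE 0.20; edgeR adjusted p = 0.0479), a call lost among genes with a mean of 5 CPM (0.0674) and with the largest part (0.1).

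Markers of the cells that could make this matrix were read beside it. Of 16 tested mesenchyme and fibroblast markers 4 were higher and none lower at an unadjusted edgeR p under 0.05. After adjustment 1 was called higher and none lower, with a median log2 fold change of 0.25. This was Prrx1, a homeodomain factor of limb and craniofacial mesenchyme, which rose with Dox, from 2.61 and 3.63 CPM to a level of 35.3 and 25.1 CPM (log2 change 3.28, SE 0.26; edgeR adjusted p = 0.00451) and held its call under each of the 12 alternatives. The summed level of the list was 647 and 643 CPM in the controls, against 627 and 644 CPM under Dox, most of it Pdgfra (467 and 425 CPM against 389.5 and 391.7 CPM), which primitive endoderm also expresses. Several other members were well detected: Pdpn stood at 71.8 to 87.8 CPM, Snai1 at 50.1 to 79.3 CPM and Pdgfrb at 9.47 to 11.6 CPM. Twist1 stood at 11.7 and 16.6 CPM in the controls, against 24.4 and 23.3 CPM under Dox (adjusted p = 0.215), and Meox2 at 0 and 0.163 CPM against 1.04 and 2.76 CPM (adjusted p = 0.127). Both are transcription factors of early mesenchyme. Twist2 went the other way, at 0.954 and 1.84 CPM in the controls against 0.401 and 0.842 CPM under Dox (edgeR adjusted p = 0.559). Of the 16 tested markers, 7 had both Dox libraries above both controls and 4 had both below. Over all genes tested these shares were 18.9% and 19.9%. Thy1 and S100a4 were at 0 in 1 and 2 of the libraries without Dox and reached at most 0.293 and 0.0183 CPM elsewhere, and Fap lay at 0.549 to 0.723 CPM. Genes of the mesenchyme list were thus present, while Lum, Dcn, Thy1 and S100a4, which mark mature fibroblasts, were at or near 0. RNA of whole aggregates does not show which cells expressed them. The set is therefore described as collagen and matrix genes and given no cell type name. The part of mesenchymal cells in the Col1a1 and Col3a1 values was not tested.

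Other cell types gave few calls. Of 7 tested cartilage markers 1 was called higher and none lower, with a median log2 fold change of -0.07. Sox9, which drives cartilage matrix genes and is also present in neural progenitors, rose with Dox, from 26.5 and 21.7 CPM to a level of 46.8 and 54.8 CPM (log2 change 1.07, SE 0.16; edgeR adjusted p = 0.0448), a call that ended among genes with a mean of 5 CPM (adjusted p = 0.0586). Cnmd of the same list went the other way, at 4.37 and 4.98 CPM in the controls against 1.74 and 1.19 CPM under Dox (edgeR adjusted p = 0.0679). Acan and Pax1 stayed below 1 CPM. Of the 7 tested, 1 had both Dox libraries above both controls and 3 had both below, where 18.9% and 19.9% of all genes tested did. None of 4 bone, 6 muscle, 7 neural crest, 6 meningeal, 5 endothelial and 12 primitive endoderm genes was called by edgeR. At an unadjusted edgeR p under 0.05, 4 of these 40 were higher and 7 lower, where 6.25% and 4.01% of all genes tested were. Alpl, for bone, stood at 15.8 and 12.3 CPM against 10.7 and 8.26 CPM, and Tagln, for muscle, at 20.9 and 8.65 CPM against 11.6 and 9.14 CPM. Tagln turned on single libraries: its log2 fold change was 0.26 without no Dox replicate 1, and -1.02 and called without no Dox replicate 2 (adjusted p = 0.0371). Des, an intermediate filament gene of muscle, stood at 3.74 and 4.65 CPM against 6.32 and 7.56 CPM (adjusted p = 0.315). Myog, which drives skeletal muscle differentiation, had 0 counts in both controls and 27 and 63 counts with Dox (adjusted p = 0.0573). Acta2 went the other way, at 1.73 and 0.612 CPM in the controls against 0.482 and 0.421 CPM under Dox (edgeR adjusted p = 0.469). Of the 6 tested muscle genes, 3 had a log2 fold change above 0. Tfap2b, of neural crest and dorsal neurons, stood at 85.7 and 67.1 CPM in the controls, against 40.4 and 31.7 CPM under Dox (adjusted p = 0.0616). Tfap2b was called lower in 8 of 12 alternatives, among them each left-out library (adjusted p 0.00118 to 0.0372), DESeq2 and no filter. Ngfr, a neurotrophin receptor of neural crest and motor neurons, stood at 10.1 and 7.39 CPM against 20.0 and 15.9 CPM (adjusted p = 0.129), and Sox10 did not exceed 0.161 CPM. Of the 7 tested neural crest genes, Ngfr was the 1 with a log2 fold change above 0. Foxd3 stood at 1.21 and 1.43 CPM in the controls, against 0.428 and 0.513 CPM under Dox (edgeR adjusted p = 0.173). The meningeal list summed to 586 and 582 CPM in the controls and 411 and 331 CPM under Dox, most of it Crabp2. Endothelial genes summed to 28.7 and 47.1 CPM against 33.6 and 55.0 CPM.

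The basement membrane and primitive endoderm list, led by Col4a1, summed to 44220 and 41690 CPM against 41720 and 46160 CPM, with a median log2 fold change of 0.03. None of 8 neuronal genes was called, while all 8 had a log2 fold change below 0, with a median of -0.59. Of these, 6 had both Dox libraries below both controls, where 19.9% of all genes tested did. Tubb3, a neuronal tubulin, stood at 79.1 and 83.8 CPM against 59.8 and 42.8 CPM (adjusted p = 0.216) and was called without Dox replicate 1 (adjusted p = 0.0187). Their summed level was 433 and 351 CPM in the controls, against 314 and 234 CPM under Dox, and the part of this lower neuronal level in the collagen values was not tested.

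**Figure D5:**
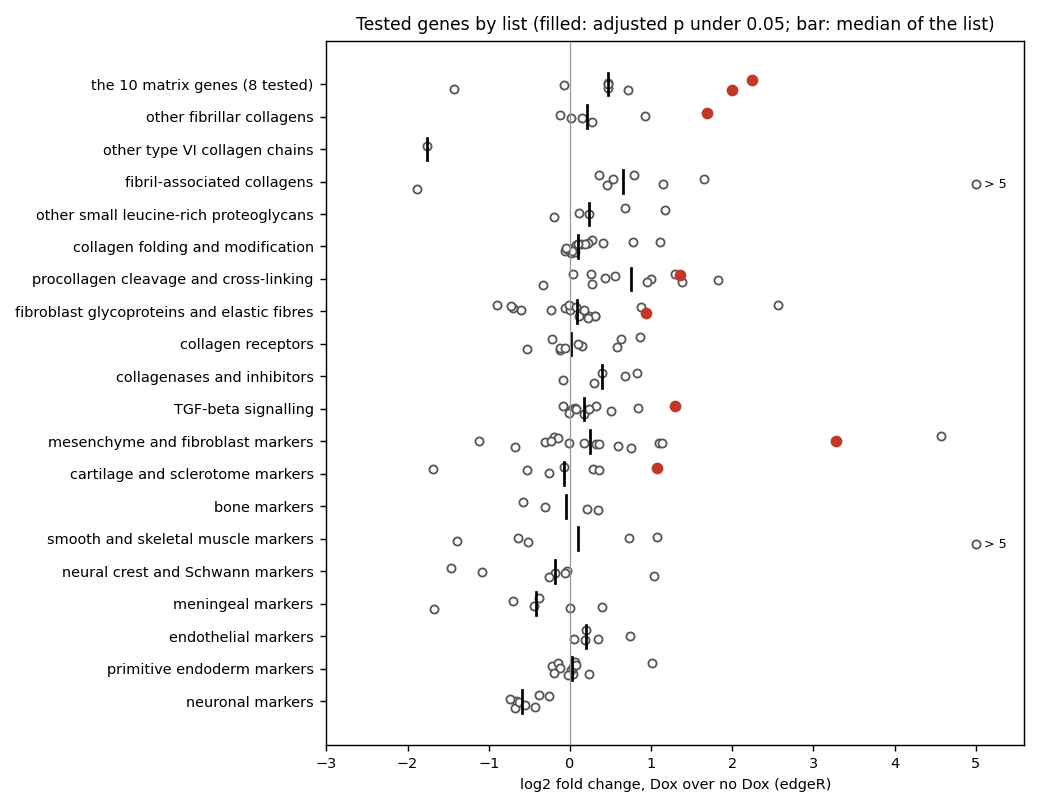
Log2 fold change (Dox over no Dox) of the 8 tested genes of the set and of each tested gene of 19 lists; filled red points have an edgeR adjusted p under 0.05, open points do not, bars are list medians, and 2 points above 5 are drawn at 5. Single genes, among them Col1a1, Col3a1 and Prrx1, stand to the right of lists whose medians lie between -1.76 and 0.75.

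Genes with a profile near that of the set were named by the distance of their centred log2 CPM over the 4 libraries. Among 10552 named genes, those nearest to the median profile of the 6 genes that averaged 5 CPM or more were Slc2a4 (0.05), St6galnac3 (0.05), Camk2b (0.06), Jade2 (0.06) and Ccdc159 (0.07), as root mean square distances on the log2 scale. That profile described the set poorly: Col1a1 lay at 0.67 and Col3a1 at 0.79 from it. Nearest to Col3a1 itself, a target chosen after its values were seen, were Lhfp (0.14), Kcnj2 (0.15), Sema3a (0.17), Clstn2 (0.17) and Atp1b2 (0.19). Col1a1 lay at 0.20 from Col3a1 with 7 genes outside the set nearer, and Col1a2 at 0.99 with 776 nearer. The 4 libraries give such distances few degrees of freedom, and likeness here describes these libraries.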

How the data were processed

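Illumina TruSeq libraries, per the labels' protocols, came from 2 samples without and 2 with Dox, grouped and numbered by title. TopHat and the build mm9 are named in the submitters' processing notes. No source used here gives the counting tool or its use of strand, so reads of overlapping genes may be shared. The authors deposited whole-number counts for 208825 numbered parts of RefSeq gene units. The 4 rows that name no gene were left out. They were mainly reads outside genes, at 13.6% to 15.8% of counts.

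Parts were summed to 21822 units and named from RefSeq (GRCm38.p6) and GENCODE M21, with 97.1% of 27601 transcript identifiers matched. For a symbol held by several units the most abundant was kept, leaving 21814 genes. Reads crossing parts may be counted in each, so sums can exceed reads, and intervals and floors cover counting error only. A floor of 3 counts stood for 0.

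Genes were tested with edgeR 4.0.16 (R 4.3.3): robust quasi-likelihood test, filterByExpr, TMM scaling and Benjamini-Hochberg adjustment over 14278 genes at 0.05. SE is the log2 fold change over the root of F. CPM is TMM-scaled. Exon lengths came from GENCODE M21, and neighbours from RefSeq, with no coordinates moved between builds. The script was tested on simulated data. Replicates, described as biological duplicates, differed beyond counting noise (chi-square 36.5 and 32.6 per degree of freedom). No label names a batch. Alternatives were 2 other scalings, 2 filters, DESeq2 1.42.0, limma-voom 3.58.1, a replicate block, the largest part per gene and leaving out each library.

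The 10 genes and the 19 lists were chosen with earlier results of these data known. Named genes are the 10, then per list up to 3 called genes or, with no call, the 2 with the largest mean CPM, then 5 genes of nearest profile. Other list genes given with values were chosen after their values were seen.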

Additional observations from a re-analysis of the deposited data

How the results depend on the processing

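The calls of Col1a1 and Col3a1 held under DESeq2 size factors, library totals, no filter, a mean of 5 CPM, DESeq2 and limma-voom. All alternatives use the same 4 libraries, whose contrast was known when the set was put together. They describe how calls depend on the processing and are no support for them. With the largest part as the count, 1 of the 10 genes was called, and with the replicate number as a block 4 were, Col5a1 and Postn beside the first 2. Leaving out 1 library gave 2 to 3, and such fits assume that a lone library varies like the other group. The block also called other genes of the text, among them Tubb3 (adjusted p = 0.000972), Dcx (0.00454) and Des (0.00927). Labels do not say that equal numbers share a batch. Deviations of same-numbered libraries correlated at 0.641 over genes.

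Counts over all genes moved more. Against 175 higher and 8 lower, there were 295 and 46 with no filter, 104 and 4 when 5 CPM were required on average, 398 and 113 by DESeq2, and 1044 and 862 with the block. The number lower was also 16 with library totals, 13 in limma-voom and 14 with the largest part. With 1 library left out, 271 to 280 were higher and 19 to 116 lower. The causes were not tested.

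For log2 fold changes of the genes in the text across alternatives, 526 values kept direction and call, 11 lost a call and 30 gained one. Another 19 values, of 12 uncalled genes, changed direction, each with a library left out. With 1 library left out, the log2 fold change ran from -0.26 to 0.14 for Col6a1, -0.0129 to 0.68 for Col22a1, -0.46 to 0.14 for Podn, -0.17 to 0.19 for P4hb, -0.13 to 0.47 for Serpinh1, -0.36 to 0.11 for Ddr1, -0.41 to 0.34 for Timp3, -0.00365 to 0.73 for Runx2, -1.02 to 0.26 for Tagln, -0.54 to 0.74 for Cdh5, -0.0169 to 0.11 for Col4a1 and -0.0807 to 0.12 for Col4a2. Depth limits Lum, Dcn and Col5a2, whose libraries held 0 to 40 counts.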
